A study of Homo sapiens with 14 samples.

Results

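The CCN family holds 6 secreted matricellular proteins, CCN1 (CYR61), CCN2 (CTGF), CCN3 (NOV), CCN4 (WISP1), CCN5 (WISP2) and CCN6 (WISP3). Every probe that the array's annotation assigns to these symbols was taken, which gave 9 probes for the 6 genes out of 48097 probes and 20043 named genes. Total RNA of 2 human melanoma lines with a BRAF mutation, WM266-4 and A375, was hybridised to 14 Illumina bead arrays. WM266-4 cells were treated with a negative control siRNA, with FOXD1 siRNA 1 or with FOXD1 siRNA 2, on 3 arrays each. A375 cells carried the empty backbone of a FOXD1 plasmid on 2 arrays or the FOXD1 plasmid on 3 arrays. The labels describe the A375 cells both as transfected and as transduced, so the way the plasmid was delivered is not settled, and no duration of treatment is given in the labels. FOXD1 is a forkhead transcription factor, and the series title links it to dedifferentiation and vemurafenib resistance through CTGF, the product of CCN2.

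CCN proteins are built from modules that bind integrins, heparan sulfate proteoglycans and growth factors, and they change how cells respond to the surrounding matrix rather than forming its scaffold. CCN1 and CCN2 are early response genes. Their transcription is driven by the Hippo pathway coactivators YAP and TAZ together with TEAD factors, by SRF with its MRTF cofactors, and, for CCN2, by TGF-beta and SMAD proteins. In skin, CCN3 is known for its part in holding melanocytes to the basement membrane. CCN4 was found as a target of Wnt signalling, CCN5 lacks the C-terminal cystine knot module of its relatives, and loss of CCN6 causes a cartilage disease of childhood.

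The 2 siRNA sequences are shown because the CCN1 and CCN2 results were obtained with both. Each is 25 bases long as the labels give it, written 5′ to 3′ with no part in capitals.
siRNA 1: uacugcuaggauuuccaauuguuaa
siRNA 2: gccgaggaaacagacaucgacgugg
The first holds 8 G or C bases and the second 15. The longest run of bases they share is 4, or 5 when one is read on the other strand, so they are different oligos with no long stretch in common.

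The CCN2 promoter is shown because CCN2 had the largest changes of the family and is a textbook TEAD target. The window is the 250 bases before the RefSeq transcription start, at chr6:131951373-131951622 on the minus strand of GRCh38.p14, written 5′ to 3′ on the gene's strand. Capitals mark GGAATG, the core motif of TEAD factors.
CCN2 promoter: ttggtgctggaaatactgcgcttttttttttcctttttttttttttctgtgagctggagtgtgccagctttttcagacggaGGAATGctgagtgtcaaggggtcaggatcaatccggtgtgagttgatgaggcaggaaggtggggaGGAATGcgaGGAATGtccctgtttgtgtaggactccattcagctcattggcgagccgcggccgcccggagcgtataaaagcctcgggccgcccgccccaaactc
The motif occurs 3 times, at bases -169 to -164, -104 to -99 and -95 to -90 counted from the start. Searched on both strands, GGAATG was found at least once in 11.9% of the 35116 windows of this length in the RefSeq table, and at least 3 times in 0.0826% of them. The CCN6 window held 1 copy. The other motifs searched were GTAAACA (forkhead factors, in 3.0% of windows), TGANTCA (AP-1, in 6.6%), CAGACA (SMAD, in 13.6%) and the CArG box of SRF (in 1.2%), and the CCN2 and CCN6 windows held 0 of each. A match is a string of letters and not a measured binding site, and its absence from this window says nothing of the factor.

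Median probe intensities were 91.6 to 103.9 across the arrays, and 46.0% to 50.4% of probes had a detection p-value under 0.05. The deposited intensity column of empty vector replicate 1 is a copy of that of overexpression replicate 3, so the authors' processed values were used for that array, and every A375 comparison rests on them. FOXD1 itself averaged 5.81 on the log2 signal scale with control siRNA, 4.42 with siRNA 1, where it was detected on 1 of 3 arrays, and 5.91 on the arrays labelled siRNA 2. It therefore fell with siRNA 1 (log2 difference -1.39, limma adjusted p = 8.06e-05), by a size that background limits on the 2 arrays without detection, whereas the arrays labelled siRNA 2 did not show a lower FOXD1 signal (0.10, adjusted p = 0.802), and a source field of those arrays names siFOXD2. In A375, FOXD1 averaged 7.31 with empty vector and 7.73 on the arrays labelled overexpression (0.42, adjusted p = 0.188). These arrays did not overlap, as was found for 35.9% of all genes in that comparison. The names siRNA 2 and overexpression are therefore used only as the labels of those arrays. The melanocytic markers SOX10, TYR, PMEL, MITF and TYRP1 were detected on 14 of 14 arrays, MLANA on 3 of 9 WM266-4 arrays and 5 of 5 A375 arrays, and S100B on 8 of 9 and 5 of 5. Of the markers of other cells, CD68, CD14 and VWF were detected on all 14 arrays, the fibroblast marker LUM on 8 of 9 WM266-4 and 4 of 5 A375 arrays, DCN on 7 and 1, and the epithelial markers EPCAM on 5 and 3 and CDH1 on 0 and 3. PDGFRA, CD3E, KRT8 and CDH5 were detected on 0, and COL6A3, THY1, PTPRC, KRT19 and PECAM1 on at most 2 arrays of a line. The part of other cells in the results was not tested.

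Of the 6 members, 5 passed the filter on low signal, a detection p-value under 0.05 on at least 2 arrays. CCN1, CCN3 and both probes of CCN2 were detected on all 14 arrays. CCN5 was detected on 9 arrays, among them all 5 of A375. One CCN6 probe was detected on 3 arrays and the other on 0. Both CCN4 probes were detected on 0 arrays, with lowest detection p-values of 0.0844 and 0.099, so CCN4 has no tested value. Bulk RNA of this kind cannot tell fewer cells expressing a gene from less of its RNA per cell.

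**Figure D1:**
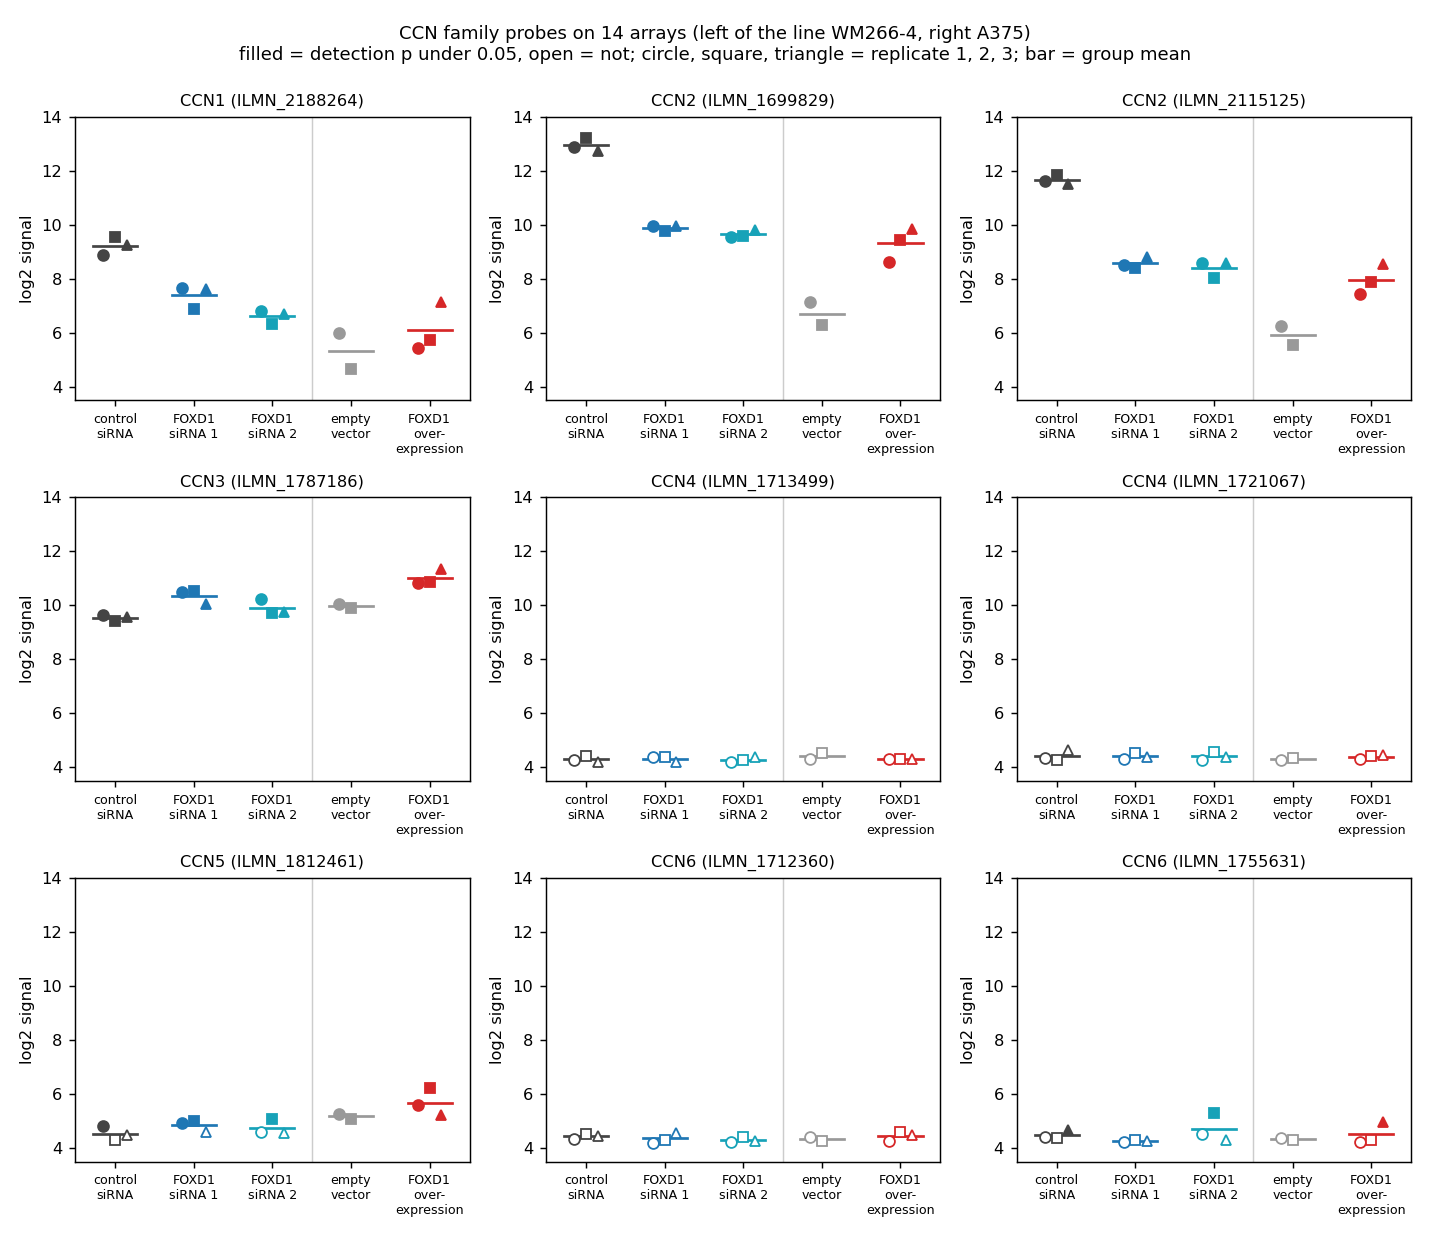
Log2 signal of the 9 CCN probes (y axis) on each of the 14 arrays, by group (x axis), with the group mean as a bar, filled symbols for detection p under 0.05 and the symbol shape giving the replicate number. Both CCN2 probes were highest on the 3 control siRNA arrays and lowest on the 2 empty vector arrays, and the CCN4 probes lay between 4.19 and 4.63 throughout.

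CCN2, which encodes connective tissue growth factor, was far lower in both siRNA groups of WM266-4 and higher on the A375 arrays labelled overexpression. Its brighter probe, ILMN_1699829, read 12.88, 13.21 and 12.72 with control siRNA, 9.96, 9.75 and 9.96 with siRNA 1, and 9.56, 9.58 and 9.80 on the arrays labelled siRNA 2. In A375 it read 7.12 and 6.29 with empty vector and 8.63, 9.43 and 9.86 with overexpression. No siRNA array came near a control siRNA array, the siRNA groups overlapped each other, and every overexpression array lay above both empty vector arrays. Such a lack of overlap was found for 32.7%, 25.7% and 35.9% of all genes in the siRNA 1, siRNA 2 and overexpression comparisons. The log2 difference from control siRNA was -3.05 for siRNA 1 (SE 0.271, limma adjusted p = 7.36e-06) and -3.29 for the arrays labelled siRNA 2 (adjusted p = 1.19e-05), or 8.27-fold and 9.78-fold lower. Among 15544 genes, these were ranks 2 and 1 from the lowest difference. With overexpression CCN2 rose by 2.61 (SE 0.303, adjusted p = 0.000394), a 6.09-fold difference and rank 13 from the highest. With the copied intensity column as deposited, the overexpression difference was 1.23 and was no longer called (adjusted p = 0.899).

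The other CCN2 probe, ILMN_2115125, gave the same account. It read 11.63, 11.84 and 11.49 with control siRNA, 8.51, 8.38 and 8.81 with siRNA 1, and 8.57, 8.03 and 8.58 on the arrays labelled siRNA 2. In A375 it read 6.25 and 5.55 with empty vector and 7.43, 7.87 and 8.54 with overexpression. The groups were separated in the same way as with the brighter probe. In a fit over 32167 probes, its log2 differences were -3.09, -3.26 and 2.04, all called, where 7.93%, 3.63% and 3.71% of all probes were called in those comparisons. Across the 14 arrays the Pearson correlation of both probes was 0.994, and 0.99 after each was centred within its cell line. Both probes measure the same RNA preparations, so this describes the probes and adds no replicate.

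Same-numbered WM266-4 arrays deviated together, so the differences within numbers can be read as pairs. For CCN2 the siRNA 1 array minus the control array was -2.92, -3.46 and -2.76 for replicates 1, 2 and 3, and for the arrays labelled siRNA 2 it was -3.32, -3.63 and -2.92. The fall was present in each of the 6 pairs. Since both siRNA groups were compared with the same control arrays, their falls are not independent of each other. Compared directly, siRNA 1 minus siRNA 2 was 0.24 for CCN2 (95% confidence interval -0.340 to 0.823, adjusted p = 0.735).

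CCN1, an integrin ligand of the same branch of the family that promotes adhesion and angiogenesis, also fell in both siRNA groups. It read 8.88, 9.53 and 9.24 with control siRNA, 7.67, 6.89 and 7.62 with siRNA 1, and 6.80, 6.32 and 6.70 on the arrays labelled siRNA 2. In A375 it read 6.00 and 4.66 with empty vector and 5.43, 5.72 and 7.12 with overexpression. The 3 WM266-4 groups did not overlap (25.3% of all genes had no overlap between the siRNA groups), whereas the A375 groups did, with empty vector replicate 1 above 2 of the 3 overexpression arrays. CCN1 fell by 1.82 on the log2 scale with siRNA 1 (SE 0.406, adjusted p = 0.00826), a 3.53-fold difference and rank 27 from the lowest. On the arrays labelled siRNA 2 it fell by 2.61 (adjusted p = 0.00144), a 6.10-fold difference, and only CCN2 had a lower value among the 15544 genes. The direct difference between the siRNA groups was 0.79 (95% confidence interval -0.0806 to 1.66, adjusted p = 0.345). Overexpression and empty vector differed by 0.76 in CCN1 (interval -0.210 to 1.74, adjusted p = 0.354), and the value ranged from 0.093 to 1.43 when single arrays were left out.

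Within replicate numbers, CCN1 with siRNA 1 differed from control by -1.21, -2.64 and -1.62. For the arrays labelled siRNA 2 these differences were -2.08, -3.21 and -2.54. Replicate 2 had the greatest fall of both CCN1 and CCN2 in both siRNA groups, and its control array was also the highest of the 3 for both genes.

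CCN3, the melanocyte adhesion factor, did not follow CCN1 and CCN2. It read 9.64, 9.43 and 9.58 with control siRNA, 10.48, 10.55 and 10.06 with siRNA 1, and 10.22, 9.71 and 9.76 on the arrays labelled siRNA 2. In A375 it read 10.07 and 9.90 with empty vector and 10.84, 10.87 and 11.35 with overexpression. Every siRNA array lay above every control siRNA array, and every overexpression array lay above both empty vector arrays. CCN3 rose by 0.81 with siRNA 1 (SE 0.187, adjusted p = 0.00962) and by 1.03 with overexpression (adjusted p = 0.0115), a 2.04-fold difference. On the arrays labelled siRNA 2 the difference was 0.34 (adjusted p = 0.340). Arrays did not overlap for 32.7%, 25.7% and 35.9% of all genes in the siRNA 1, siRNA 2 and overexpression comparisons. For the mean of both siRNA groups the CCN3 difference was 0.58 (adjusted p = 0.0334). That call was lost in 6 of the 14 fits with 1 array left out, with adjusted p-values of 0.0187 to 0.145 over all 14. Without empty vector replicate 2 the overexpression call was lost (0.95, adjusted p = 0.119), and it was lost too when A375 was fitted alone (1.03, adjusted p = 0.0641). With the copied column as deposited, siRNA 1 gave 0.81 (adjusted p = 0.102) and overexpression 0.39 (adjusted p = 0.924).

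CCN5, a relative of CCN2 that lacks its last module and can oppose its actions, was near the detection limit in WM266-4. It read 4.83, 4.29 and 4.49 with control siRNA, 4.93, 4.99 and 4.60 with siRNA 1, and 4.59, 5.08 and 4.57 on the arrays labelled siRNA 2. In A375 it read 5.28 and 5.09 with empty vector and 5.60, 6.22 and 5.22 with overexpression. All 5 A375 arrays were at or above the highest WM266-4 array, and the treated and control groups overlapped within each line. CCN5 differed by 0.30 with siRNA 1 (adjusted p = 0.479), 0.21 on the arrays labelled siRNA 2 (adjusted p = 0.698) and 0.49 with overexpression (95% confidence interval -0.0693 to 1.06, adjusted p = 0.294), none of which passed the test.

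The detected CCN6 probe, ILMN_1755631, rose above background on control siRNA replicate 3 (4.66), on replicate 2 of the arrays labelled siRNA 2 (5.30) and on overexpression replicate 3 (4.97), and read 4.22 to 4.52 on the other arrays. The detections fell on single arrays of 3 groups. Its log2 differences were -0.21 for siRNA 1, 0.23 for siRNA 2 and 0.15 for overexpression, with adjusted p-values of 0.655, 0.672 and 0.795. The other CCN6 probe read 4.20 to 4.59, and the CCN4 probes read 4.19 to 4.52 and 4.26 to 4.63. At these signals a change in CCN4 or CCN6 was not measurable.

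With siRNA 1, 3 of the 5 members tested were called, CCN1 and CCN2 lower and CCN3 higher, where 13.3% of all genes were called, 6.82% higher and 6.47% lower. On the arrays labelled siRNA 2, 2 members were called, CCN1 and CCN2, both lower, against 6.57% of all genes, or 2.64% that were lower. For the mean of the siRNA groups the count was 3, against 11.1%. With overexpression CCN2 and CCN3 were called, both higher, against 7.13%, or 3.67% that were higher. The direct comparison of the siRNA groups called 0 members, against 5.52% of all genes by limma, and 1 member, CCN3, had an unadjusted p under 0.05. The median log2 difference of the 5 members was -0.21 for siRNA 1, 0.21 for siRNA 2 and 0.76 for overexpression, beside 0.00513, 0.000932 and 0.00339 over all genes. The median of 5 members is the value of 1 of them, here CCN6, CCN5 and CCN1 in turn, none of them called in that comparison. It does not describe the members that were called. Computed from the authors' deposited log2 values instead, the differences for siRNA 1, siRNA 2 and overexpression were -2.91, -3.13 and 1.97 for CCN2, -1.47, -1.97 and 0.34 for CCN1, and 0.76, 0.32 and 0.97 for CCN3.

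**Figure D2:**
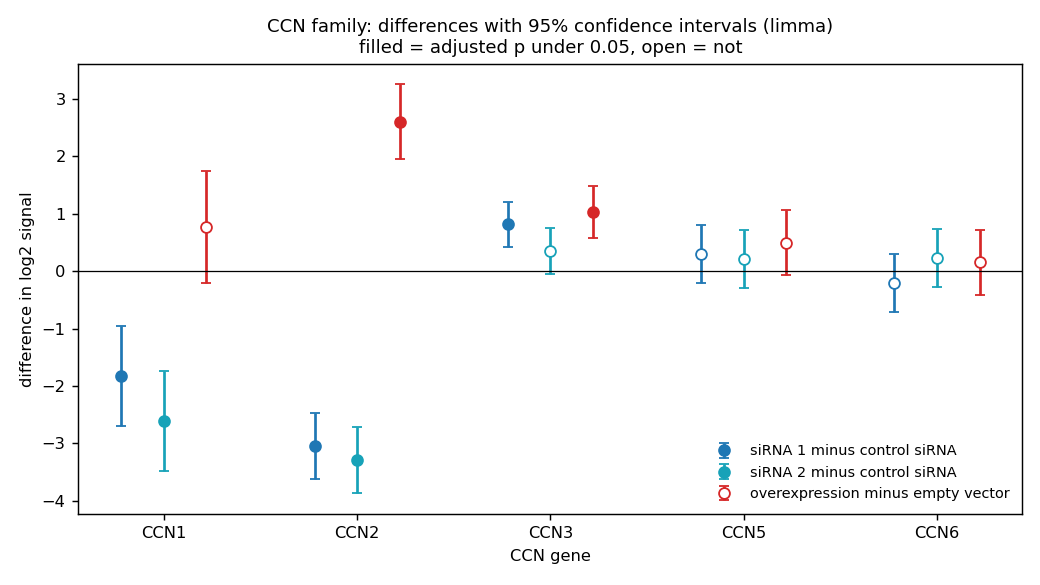
Log2 differences (y axis) of the 5 CCN genes tested (x axis) for each siRNA group against control siRNA and for overexpression against empty vector, with 95% confidence intervals from limma and filled points for adjusted p under 0.05. CCN2 lies at -3.05, -3.29 and 2.61, CCN1 below 0 only in the siRNA comparisons, and CCN3 above 0 in all 3, at 0.81, 0.34 and 1.03.

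Whether the overexpression change in A375 mirrored the siRNA change in WM266-4 was tested as the overexpression difference minus the sign-reversed mean siRNA difference. For CCN2 this was -0.56 (95% confidence interval -1.39 to 0.259, adjusted p = 0.425), beside the rise of 2.61 in A375 and the mean change of -3.17 in WM266-4. The other CCN2 probe gave -1.13 (95% confidence interval -1.92 to -0.339, adjusted p = 0.105 over all probes), and the brighter probe was called without background correction (-1.08, adjusted p = 0.0269) and on the authors' deposited log2 values (-1.05, adjusted p = 0.0295). Whether the CCN2 changes were equal in size is therefore not settled. For CCN1 it was -1.45 (95% confidence interval -2.68 to -0.219, adjusted p = 0.145). Blocking on the replicate number gave -1.96, which was called (adjusted p = 0.0297), in a fit to which overexpression replicate 3 adds nothing because no empty vector array shares its number. For CCN3 it was 1.61 (SE 0.264, adjusted p = 0.00271), since CCN3 was higher in both. CCN3 was the 1 member of 5 called in this comparison, where 8.29% of all genes were called, 4.44% with a positive value. With the copied column as deposited, the CCN3 value was 0.97 (adjusted p = 0.347). The lines also differ in the kind of treatment, so line and treatment cannot be told apart.

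Among the CCN members, the control arms of the lines differed most in CCN1 and CCN2. CCN2 was 6.23 log2 units lower in empty vector A375 than in control siRNA WM266-4 (adjusted p = 1.03e-07), a 75.2-fold difference and the lowest value of all 15544 genes. CCN1 differed by -3.89 (adjusted p = 7.68e-05), or 14.8-fold, at rank 3 from the lowest. These were 2 of the 5 members tested, both lower, where 20.9% of all genes were called and 9.08% were called lower. For 48.5% of all genes the arrays of these arms had no overlap. CCN3 differed by 0.44 (adjusted p = 0.162), CCN5 by 0.65 (adjusted p = 0.0977) and CCN6 by -0.12 (adjusted p = 0.787). Ordered by group mean, CCN2 ran from 12.94 ± 0.25 with control siRNA through 9.89 ± 0.12 with siRNA 1, 9.65 ± 0.13 on the arrays labelled siRNA 2 and 9.31 ± 0.63 with overexpression to 6.70 ± 0.58 with empty vector (SD, n = 3, and 2 for empty vector). The 3 groups in the middle of that order overlapped with their neighbours, and the outer groups overlapped with none. For CCN1 the order was the same, from 9.22 ± 0.33 through 7.40 ± 0.44, 6.61 ± 0.25 and 6.09 ± 0.90 to 5.33 ± 0.95. The overexpression arrays, at 5.43 to 7.12, overlapped with both siRNA groups and with empty vector, and no other groups overlapped. For CCN3 it ran from 11.02 ± 0.29 with overexpression through 10.36 ± 0.26 with siRNA 1, 9.99 ± 0.12 with empty vector and 9.89 ± 0.28 on the arrays labelled siRNA 2 to 9.55 ± 0.11 with control siRNA.

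The members were then set against each other array by array, as a description. After centring within each line, CCN1 and CCN2 had a Pearson correlation of 0.885 over the 14 arrays, with 0.952 over the 9 WM266-4 arrays and 0.716 over the 5 A375 arrays. CCN2 and CCN3 had -0.697 over the WM266-4 arrays and 0.975 over the A375 arrays, and -0.00294 over all 14. CCN1 and CCN3 likewise had -0.539 and 0.727. These values include the differences between treated and control groups, and the arrays of a line share their controls. CCN3 was thus high where CCN2 was low in WM266-4 and high where CCN2 was high in A375.

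**Figure D3:**
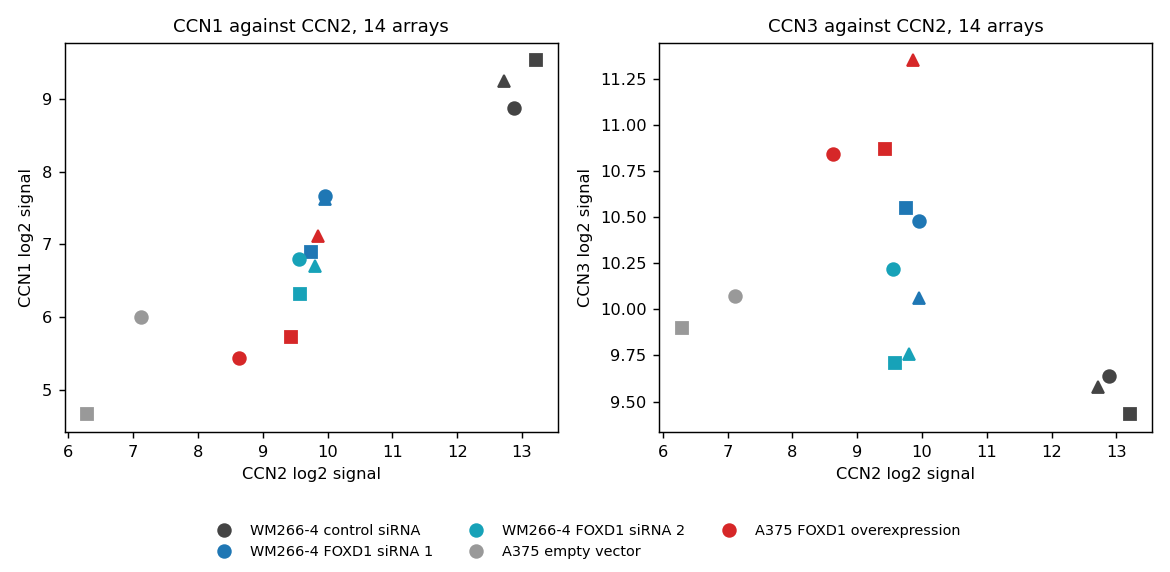
CCN1 (left) and CCN3 (right) log2 signal on the y axis against CCN2 log2 signal on the x axis for the 14 arrays, coloured by group with the symbol shape giving the replicate number. CCN1 rises with CCN2 in WM266-4 (Pearson correlation 0.952) and less evenly in A375 (0.716). There, empty vector replicate 1, at 6.00 for CCN1, lies above overexpression replicates 1 and 2, at 5.43 and 5.72. The control siRNA arrays, highest for CCN2 at 12.72 to 13.21, are the lowest for CCN3 at 9.43 to 9.64.

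The genes most like CCN2 over the 14 arrays, by Pearson correlation after centring within lines, were EBF1 (0.959), PEG10 (0.954), POU3F2 (0.952), RAB2A (0.951) and SLC38A2 (0.941). EBF1 and POU3F2 encode transcription factors, POU3F2 being BRN2, a factor of the melanocyte lineage. POU3F2 fell by 0.95 with siRNA 1 and by 1.04 on the arrays labelled siRNA 2, and rose by 0.88 with overexpression, with adjusted p-values of 0.00228, 0.00244 and 0.0167. EBF1 fell by 1.03 and 0.96 and rose by 0.62, with adjusted p-values of 0.000496, 0.00163 and 0.0427. Both changes were smaller than those of CCN2 on the log2 scale. The genes most like CCN1 were BFSP1 (0.927), BCL6 (0.919), N4BP2L2 (0.918), HEXIM2 (0.918) and HMBOX1 (0.915). BCL6, a transcriptional repressor, differed by -1.18 and -1.29 in the siRNA groups, both falls called (adjusted p = 0.000636 and 0.000692) and differed by 0.64 with overexpression (adjusted p = 0.0747). These genes were picked out of 15544 for their likeness over values that hold the differences between treated and control groups. The direction of their changes thus follows from the choice. Their correlations, differences and adjusted p-values are a description and no separate test.

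No other listed target of YAP, TAZ and TEAD was called lower in a siRNA group. Of 18 measured among 20, siRNA 1 called 3 higher and 0 lower, the arrays labelled siRNA 2 called 2 higher and 0 lower, and overexpression called 4 higher and 0 lower. The shares of all genes called were 13.3% (6.82% higher, 6.47% lower), 6.57% (2.64% lower) and 7.13% (3.67% higher). In a list of this size 0 called lower is thus near the background. On the arrays labelled siRNA 2, 610 of all 15544 genes were called higher. With siRNA 1 the called targets were FJX1 (1.08, adjusted p = 8.06e-05), GADD45A, a stress response gene (0.96, adjusted p = 0.00217), and CCDC80. CCDC80 was not detected on the 3 control arrays and was at least 1.48-fold higher (adjusted p = 0.0176). It was detected on 4 of the 14 arrays, 3 of them with siRNA 1. It thus passed the filter only through the group where it was high, and its call is a description only. The CCDC80 call was kept in 11 of the 14 fits with 1 array left out. It was lost without background correction and on the authors' log2 values. On the arrays labelled siRNA 2 the called targets were ASAP1 (0.55, adjusted p = 0.0344) and FJX1 (0.45, adjusted p = 0.0491). The first was called in 9 and the second in 2 of the 14 fits with 1 array left out. The median differences of the list were 0.22, -0.00199 and 0.11. Among those not called, F3, which encodes tissue factor, differed by -0.67 and -0.54 in the siRNA groups and AXL, a receptor tyrosine kinase, by -0.58 and -0.71. With the replicate number as a block the counts grew to 6 higher and 1 lower (F3, adjusted p = 0.0432) for siRNA 1. On the arrays labelled siRNA 2 they grew to 4 higher and 1 lower (CRIM1, adjusted p = 0.0342). The block also called more of all genes on the arrays labelled siRNA 2, 1611 beside 1021. Its total with siRNA 1 is not given here. Of the 17 list members with a promoter window, 7 held GGAATG.

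With overexpression the called targets were AXL (1.73, adjusted p = 0.0051), MYOF, a membrane repair protein (1.32, adjusted p = 0.0119), NT5E, the ectonucleotidase CD73 (1.30, adjusted p = 0.0254), and RBMS3, an RNA-binding protein (1.07, adjusted p = 0.00254). Their rises were smaller than the 2.61 of CCN2. A fit of A375 alone called AXL and NT5E, but not MYOF and RBMS3. Without empty vector replicate 2 only RBMS3 was still called, without empty vector replicate 1 only AXL and RBMS3, and with the copied column 0 of the 18.

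**Figure D4:**
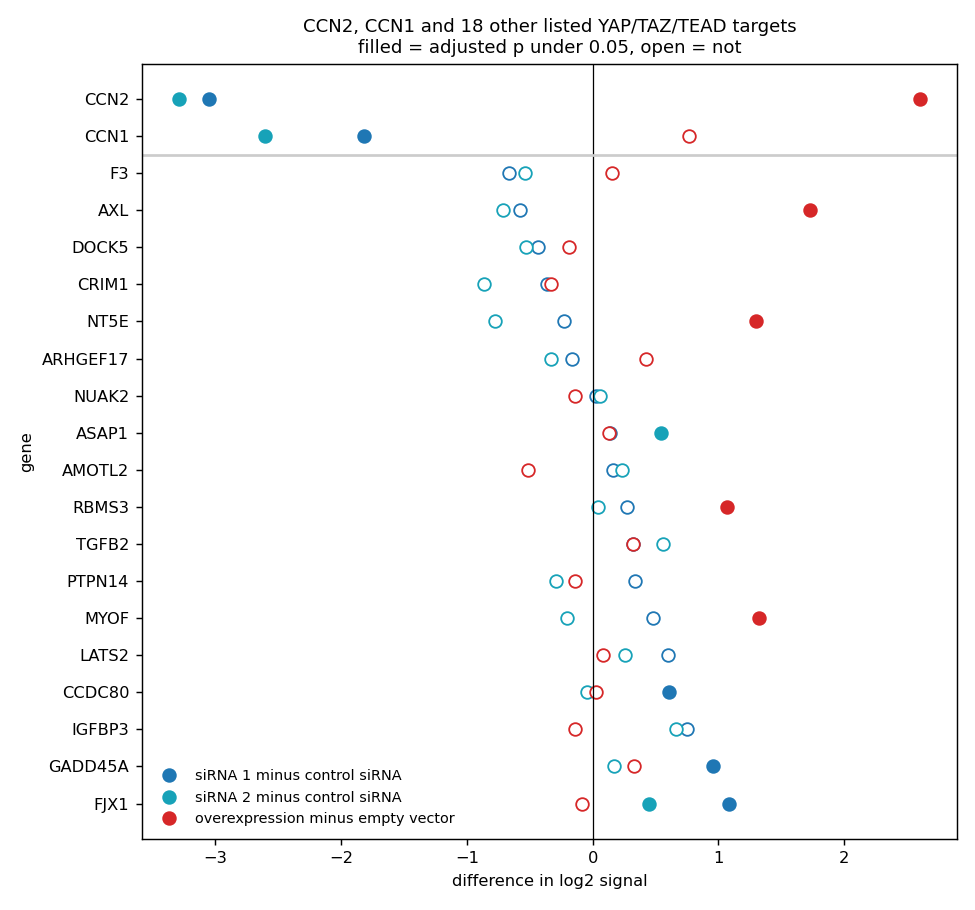
Log2 differences (x axis) of CCN2, CCN1 and the 18 other measured targets of YAP, TAZ and TEAD (y axis) for each siRNA group against control siRNA and for overexpression against empty vector, with filled points for adjusted p under 0.05. CCN2 and CCN1 lie at -3.29 to -1.82 in the siRNA comparisons, whereas the other targets lie between -0.87 and 1.08.

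Among 16 Hippo pathway factors, all measured, siRNA 1 called 4 lower and 1 higher, where 13.3% of all genes were called and 6.47% were lower. YAP1, the coactivator itself, fell by 1.13 (adjusted p = 6.7e-05), and the upstream kinase complex genes SAV1, STK3 and MOB1A fell by 0.83, 0.62 and 0.57 (adjusted p = 0.00127, 0.0323 and 0.034), while AMOT, a YAP-binding scaffold, rose by 0.83 (adjusted p = 0.00336). The STK3 and MOB1A calls were each lost in 4 of the 14 fits with 1 array left out. On the arrays labelled siRNA 2, YAP1 was the 1 gene called of 16 (6.57% of all genes were called), at -0.46 (adjusted p = 0.0488), and this call was kept in 4 of those 14 fits. WWTR1, which encodes TAZ, differed by -0.05 and -0.11 in the siRNA groups and was not called. TEAD1 was detected on 1 of 3 control siRNA, 0 of 3 siRNA 1 and 1 of 3 arrays labelled siRNA 2. At these signals a change in TEAD1 was not measurable. With overexpression STK3 was called (0.73, adjusted p = 0.0408, kept in 7 of 14), and YAP1 differed by 0.45 (adjusted p = 0.0762). STK3 was not called with A375 fitted alone.

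In the SRF, TGF-beta, receptor and matrix lists that follow, the counts called are to be read against the same shares of all genes. These were 13.3% for siRNA 1, 6.57% for the arrays labelled siRNA 2 and 7.13% for overexpression. Counts of 0 to 2 in lists of 7 to 15 genes are near them. Counts of 3 lay above them, in 14 SRF and MRTF genes (siRNA 1) and 12 other matricellular genes (overexpression). No set test was run. Counts with the replicate number as a block are not to be read against these shares. The block called 1611 of all genes on the arrays labelled siRNA 2, beside 1021 without it. Its total with siRNA 1 is not given here. Of 14 measured SRF and MRTF genes, siRNA 1 called SRF (0.78, adjusted p = 0.00529) and ACTA2, smooth muscle actin (1.75, adjusted p = 0.00331), higher and the early response factor EGR1 lower (-0.94, adjusted p = 0.00945). On the arrays labelled siRNA 2 the 1 gene called was TPM1, a tropomyosin (-1.36, adjusted p = 0.0293), in 9 of the 14 fits with 1 array left out. With overexpression it was ACTA2 (1.90, adjusted p = 0.0106), lost without empty vector replicate 2. With the replicate number as a block, siRNA 1 called 3 higher and 3 lower and the arrays labelled siRNA 2 called 2 lower. ACTA2 was thus higher both with siRNA 1 and with overexpression, as CCN3 was. On the arrays labelled siRNA 2, however, ACTA2 differed from control by 0.02 (adjusted p = 0.985). Its direct difference, siRNA 1 minus siRNA 2, was 1.73 (limma adjusted p = 0.00758). For CCN3 that difference was 0.47 (adjusted p = 0.194).

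Of 12 measured genes of TGF-beta signalling, siRNA 1 called 2 lower, a count near the 13.3% of all genes, the coreceptor TGFBR3 (-1.80, adjusted p = 0.000249) and the receptor TGFBR1 (-0.70, adjusted p = 0.0164), the latter detected on 1 of the 3 siRNA 1 arrays and kept in 11 of the 14 fits with 1 array left out. The arrays labelled siRNA 2 called 0 by limma, with TGFBR3 at -0.84 (adjusted p = 0.0543), and TGFBR3 was called there with the replicate number as a block (adjusted p = 0.0117). Overexpression called 0, with TGFBR2 at 0.67 (adjusted p = 0.0584). SMAD2, SMAD3, SMAD4 and SMAD7 were called in none of the 3 comparisons.

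Receptors and binding partners of CCN proteins were measured for 15 of 18 genes. ITGB3, the beta subunit of the vitronectin receptor to which CCN1 and CCN2 bind, fell by 1.15 with siRNA 1 and by 0.97 on the arrays labelled siRNA 2 (adjusted p = 0.00107 and 0.00678), calls that were kept in 14 of 14 fits with 1 array left out. ITGA5, the alpha subunit of the fibronectin receptor, rose by 0.94 with siRNA 1 (adjusted p = 0.00861). With overexpression ITGA11, a collagen receptor subunit, rose by 2.62 (adjusted p = 0.00432), and ITGAV, the partner of ITGB3, by 0.81 (adjusted p = 0.0226). The ITGA11 call was lost without empty vector replicate 2, and the ITGAV call in 3 of 14 such fits. Fitted alone, A375 had 0 of the 15 genes called with overexpression. ITGB1, LRP1, LRP6 and SDC4 were called in none of the 3 comparisons, and LRP1 was detected on only 10 of the 14 arrays. With the replicate number as a block, the arrays labelled siRNA 2 called 3 lower, ITGAV, ITGB3 and ITGA11.

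Other matricellular proteins, outside the CCN family, were measured for 12 of 15 genes. THBS2, an inhibitor of angiogenesis, was the 1 gene called with siRNA 1 (1.36, adjusted p = 8e-05), and the arrays labelled siRNA 2 called 0 by limma, with THBS2 at 0.49 (adjusted p = 0.0847), which was called with the replicate number as a block (adjusted p = 0.040). With overexpression SPARCL1 (2.66, adjusted p = 0.000109) and SPARC (0.93, adjusted p = 0.0163) rose and FBLN5 fell (-1.80, adjusted p = 0.00315). A fit of A375 alone called SPARCL1, but not SPARC and FBLN5. Without empty vector replicate 2 only SPARCL1 was still called. The 7 listed IGF-binding genes, mostly IGFBPs, which share a module with the CCN family, had 0 called in either siRNA comparison, with IGFBP4 at 0.96 and 1.06 (adjusted p = 0.0876 and 0.088), and IGFBP6 called with overexpression (1.30, adjusted p = 0.0269, in 10 of 14 fits with 1 array left out). IGFBP6 was not called with A375 fitted alone. With the replicate number as a block, siRNA 1 called 3 of the 7 and the arrays labelled siRNA 2 also 3. The shares of all genes given above do not cover these block counts. Of 8 measured matrix genes that are linked to CCN2 in fibrosis, 0 were called in either siRNA comparison. With the block 1 was, TIMP1 on the arrays labelled siRNA 2, at -0.40 and adjusted p = 0.039. COL1A2 was called with overexpression (1.59, adjusted p = 0.00372), while FN1 differed by -0.54 there and was not called. COL1A1 was detected on 0 of 2 empty vector and 1 of 3 overexpression arrays, so a change in it was not measurable.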

How the data were processed

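The authors deposited, per the file headers, each probe's intensity (linear, not normalized) together with its detection p-value. No source used here names the scanner software. A second deposited table by the authors holds log2 values, whose distribution is the same on every array of a line, as after quantile normalization within lines, so their levels were not compared between lines.

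Values were missing for 10 of 48107 probes, which were dropped. In the deposited intensity of empty vector replicate 1, 100% of probes lay within 1% of overexpression replicate 3 (next highest pair of arrays 7.37%), and its rank correlation was 0.777 with the authors' log2 values of its own array and 0.9999 with those of the other. The antilog of the authors' log2 values replaced it.

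Background was corrected by normexp from the detection p-values (offset 16), arrays were quantile normalized together, and log2 taken (limma 3.58.1, R 4.3.3). Fold changes of dim probes are compressed by the offset. Probes with detection p under 0.05 on at least 2 arrays were kept. The brightest named probe stood for a gene (15544 genes). Symbols are those of the platform annotation, and 30068 of 30107 singly named probes matched RefSeq (GRCh38.p14). One limma fit (lmFit, eBayes) held the 5 groups without covariates, and "called" means p under 0.05 after Benjamini-Hochberg adjustment across the 15544 genes. Leave-one-out fits, other backgrounds, filters and fits were the alternatives. The test was checked on simulated data. The number of arrays limits the precision.

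WM266-4 replicate numbers were read as pairs only for the differences within numbers and in the fit with the replicate number as a block. The main fit, which gave the adjusted p-values unless another fit is named, did not pair. Deviations from group means of same-numbered WM266-4 arrays correlated at 0.141 to 0.273 in every pair. In A375 they did not (-0.0295 and 0.0378). Nothing in the labels tells whether replicates came from separate cultures, so the p-values here cover the spread among these arrays only, possibly a technical one. Members and gene lists were chosen with earlier results of these data known. Genes named from a list are those called, up to 5 by size, and up to 2 others, and the 5 genes most correlated with CCN1 and CCN2. Genes given as not called beyond those were chosen after their values were seen. CCN3 and CCN4 were left out of sequence work, and the RefSeq promoter table used here gave windows for CCN2 and CCN6.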

Additional observations from a re-analysis of the deposited data

Results flagged for a closer look

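CCN3 was called in the test of whether the overexpression change mirrored the siRNA change. That test does not compare the sizes of its rises in both lines, which were not compared. The overexpression difference in A375 minus the sign-reversed mean siRNA difference in WM266-4 was 1.61 (SE 0.264, limma adjusted p = 0.00271). This value ranged from 1.44 to 1.70 when single arrays were left out. CCN3 was higher on 6 of 6 siRNA arrays than on the control siRNA arrays. It was also higher on 3 of 3 overexpression arrays than on the empty vector arrays. Arrays did not overlap for 32.7%, 25.7% and 35.9% of all genes in the siRNA 1, siRNA 2 and overexpression comparisons.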

How the results depend on the processing

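The falls of CCN1 and CCN2 in both siRNA groups kept their direction and their call under all 11 alternative settings and all 14 fits with 1 array left out, and the CCN2 rise with overexpression under all but the copied column. With the copied column as deposited, overexpression gave 1.23 for CCN2, 0.39 for CCN3 and -0.13 for CCN6, with 0 members called. That column also gave 0.81 for CCN3 with siRNA 1, 0.58 for the siRNA mean, 0.97 for the difference between lines (0 members called) and 1.08 for A375 minus WM266-4 (adjusted p = 0.0427, now called), and -0.13 and 0.16 for CCN6 in the last 2. For the difference between lines, CCN1 became called without background correction (-1.37), with offset 50 (-1.48), on the authors' log2 values (-1.38) and with the replicate block (-1.96), and CCN2 without background correction (-1.08) and on the authors' values (-1.05), which moved the 1 member called to 3, 2, 3 and 2. Each line fitted alone gave 1.03 for CCN3 with overexpression, not called, and 1 member called. The low CCN6 differences changed sign, to -0.041 and -0.0066 (siRNA mean, difference between lines) without background correction, to -0.047 and -0.012 on the authors' values, and to -0.074 (overexpression) and -0.068 with the replicate block. Pairing the arrays by replicate number in that block changed no other call of a CCN gene against its group's control. Under the stricter filter CCN6 was not tested and gave no value. The causes were not tested.

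With 1 array left out, CCN3 ranged from 0.50 to 0.65 for the siRNA mean and from 0.87 to 1.12 for overexpression (1 to 2 members called), CCN1 from -2.12 to -0.78 for the difference between lines (1 to 2 members called), and CCN6 from -0.14 to 0.11 for the siRNA mean, -0.073 to 0.43 for siRNA 2, -0.074 to 0.29 for overexpression and -0.068 to 0.30 for the difference between lines. Over all genes, the 2065 called with siRNA 1 ranged from 1313 to 2326, the 1021 with siRNA 2 from 553 to 1265 and the 1109 with overexpression from 142 to 1084, while the block called 1611 with siRNA 2 and the copied column 0 with overexpression. Calls in the listed gene groups moved by over 1.5 times under some setting in 6 of 8 lists with siRNA 1 and in all 8 in the other 2 comparisons, for YAP, TAZ and TEAD targets from 3 to between 2 and 7, from 2 to between 0 and 5, and from 4 to between 0 and 4. Low signal limits CCN4, CCN5 and CCN6.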
